A study of Mus musculus with 6 samples.

Results

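Ikaros, ETS and RUNX proteins are 3 families of DNA-binding transcription factors that steer the development and effector functions of lymphocytes, natural killer (NK) cells included. The expression of 10 of their genes was followed in splenic NK cells with and without METTL3, out of 14490 genes with values. They were taken by name and by no cut-off on their values, though earlier results of these data were known. They are the Ikaros family genes Ikzf1, Ikzf2 and Ikzf3, the ETS genes Ets1, Ets2, Elf4 and Fli1, the RUNX genes Runx1 and Runx3, and Cbfb. Cbfb encodes the common partner of RUNX proteins. All 10 had values in every sample. METTL3 is the catalytic subunit of the complex that writes N6-methyladenosine (m6A) on mRNA, and the mRNA-seq asked which transcripts differ in NK cells that lack it. The samples were splenic NK cells of C57BL/6 mice, 3 of genotype Mettl3fl/fl (WT) and 3 of genotype Ncr1Cre-Mettl3fl/fl (cKO), so the floxed Mettl3 allele was common to both groups. The Cre recombinase of cKO mice is driven from the Ncr1 locus, which is active once NK cells express NKp46, and the WT genotype is given without Cre. No treatment was given in the labels, and they state no age. They do not say that the 3 samples of a genotype came from separate mice. The p-values below thus rest on the spread between samples, which may not be that between mice.

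Ikaros proteins bind DNA through zinc fingers and bring chromatin complexes such as NuRD to their target genes, where they repress or activate transcription. ETS proteins share a DNA-binding domain that reads a GGAA core, and several of them are switched by kinase signaling. RUNX proteins bind TGTGGT-like sites, and they do so stably only in a complex with CBFβ. In NK cells, Ets1 and Runx3 are known for their part in development and maturation, Ikzf3 (Aiolos) for late maturation, and Elf4 (also called MEF) for the control of perforin.

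Values are counts divided by the sample's size factor (normalized counts) and come from 55965515 to 71464042 reads per sample on the listed genes. A gene was called where the adjusted p of limma, fitted on log2(value + 1) of all genes and corrected by the Benjamini-Hochberg method, was under 0.05. The limma fit moves each gene's variance toward a trend over all genes, so its p does not rest on that gene's 6 values alone. Log2 fold changes are on that log2(value + 1) scale, as cKO minus WT, with the 95% interval of limma in parentheses. Mettl3, the targeted gene, was 1303, 1258 and 1192 normalized counts in WT and 297, 299 and 405 in cKO. The cKO samples were thus all below WT, and the mean fell from 1251 ± 56.0 to 334 ± 61.9 (SD, n = 3 each), a log2 fold change of −1.92. The markers of NK cells were high in every sample, with summed normalized counts of the 8 marker genes of 591165 to 620292 in WT and 541865 to 573404 in cKO, so the sums of the genotypes did not overlap.

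Of the genes followed, 5 of 10 were called, while 36.6% of all genes were. Of these, 3 were higher in cKO (Ets1, Elf4 and Fli1, against 17.8% of all genes called higher) and 2 were lower (Ets2 and Runx1, against 18.8% of all genes called lower). Under a scaling of the samples to equal totals, the split was 4 higher, with Runx3 added, and 1 lower, with Ets2 left. The values of the genotypes did not overlap for 5 of the 10 genes, Ets1, Elf4 and Fli1 above and Ets2 and Ikzf1 below WT, beside 45.7% of all genes. All 3 genes called higher belong to the ETS family, and so does the gene with the largest change of the 10, Ets2. The changes were small. The median size of the log2 fold change was 0.10 over the 10 genes and 0.17 over all genes, and for 7 of the 10 genes the interval lay within 0.25 of 0 on the log2 scale. The study's rule, set on DESeq2 results, was an unadjusted p under 0.05 with a log2 fold change beyond 1 in either direction. With these cut-offs applied to the limma results instead, 0 of the 10 genes passed, beside 1.75% of all genes. With that fold limit dropped, 5 of the 10 genes had an unadjusted p under 0.05 by limma, where 44.2% of all genes did, and 5 by limma-voom, where 44.0% did. An adjusted p under 0.05 with a log2 fold change beyond 0.5 was found for 0 of the 10 genes in either fit and for 6.95% of all genes by limma.

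**Figure D1:**
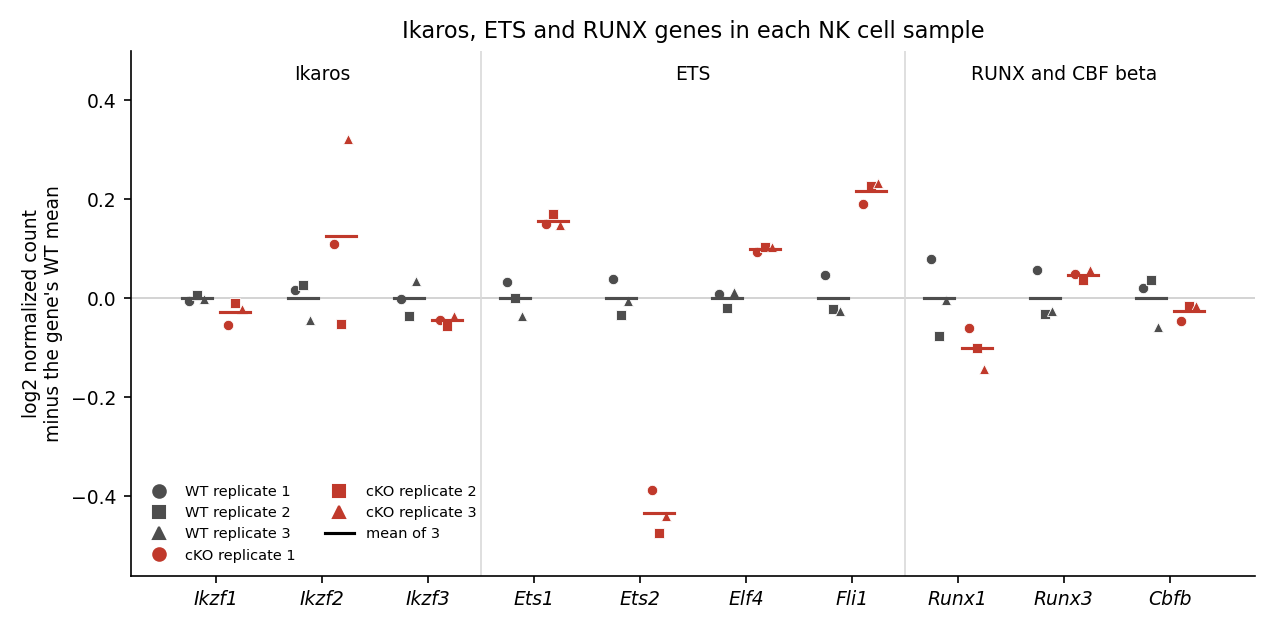
Log2 normalized count of each of the 10 genes in each sample, as the difference from that gene's WT mean (y axis), with 1 symbol per sample and a line at the mean of 3 samples. The 3 cKO samples of Ets2 sit apart from WT at the bottom, those of Ets1, Elf4 and Fli1 sit above WT, and those of Ikzf2 spread the most.

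The Ikaros genes showed no called difference. Ikzf1 encodes Ikaros, the founding member of the family. Its values were 43597, 43915 and 43678 normalized counts in WT and 42127, 43456 and 43090.1 in cKO. All 3 cKO samples were below all WT samples, yet the step was small, at −1.92% of the WT level, with a log2 fold change of −0.03 (−0.09 to 0.03, adjusted p = 0.483 by limma). Under the scaling to equal totals its sign turned, to 0.02. Ikzf3 encodes Aiolos. It had 20274, 19794 and 20792 normalized counts in WT and 19689, 19510.4 and 19800.2 in cKO, so 1 cKO sample lay within the WT range. Its log2 fold change of −0.04 (−0.11 to 0.02, adjusted p = 0.275 by limma) also turned sign under equal totals, to 0.01. The interval places any change of Ikzf3 between −7.17% and 1.27% of the WT level. The study also held Ikzf3 in its own set of genes around IL-15 receptor signaling.

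Ikzf2 encodes Helios, which is best known from regulatory T cells. It was the gene with the lowest counts of the 10, with 966, 972 and 926 normalized counts in WT and 1029.95, 921 and 1192 in cKO. The WT samples were tightly grouped, whereas the cKO samples spread from below to above them, with a coefficient of variation of 13.0% in cKO and 2.62% in WT. The log2 fold change was 0.13 (−0.03 to 0.29, adjusted p = 0.215 by limma). Single cKO samples set this value: it was 0.22 without cKO replicate 2, which was then called (adjusted p = 0.0349 by limma), and 0.03 without cKO replicate 3 (adjusted p = 0.821 by limma).

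Among the ETS genes, all 4 were called. Ets2 encodes a factor that is activated by phosphorylation downstream of Ras and MAP kinases. Ets2 was 8249, 7853 and 8003 normalized counts in WT and 6141, 5785 and 5920.3 in cKO. Every cKO sample was well below every WT sample, and the replicates of each genotype stood close together. The mean fell from 8035 ± 200 (SD, n = 3) to 5949 ± 180 (SD, n = 3), a change of −26.0% and a log2 fold change of −0.43 (−0.51 to −0.36, adjusted p = 3.99e-10 by limma). Of all genes, 15.6% had a larger log2 fold change in size. The exact permutation test over the 20 ways to divide the 6 samples gave p = 0.1, the smallest p it can give.

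Ets1, which NK cells need to reach normal numbers, moved the other way. It had 55672, 54445 and 53083 normalized counts in WT and 60395, 61245 and 60251 in cKO. The groups did not overlap, and the rise was 11.5%, with a log2 fold change of 0.16 (0.10 to 0.22, adjusted p = 1.08e-04 by limma, exact permutation p = 0.1). Fli1 is an ETS factor of blood stem cells, megakaryocytes and lymphocytes. Its values were 8664, 8255 and 8233 normalized counts in WT and 9559, 9809 and 9851 in cKO. Again all cKO samples were above WT, by 16.2% in the mean, with a log2 fold change of 0.22 (0.15 to 0.29, adjusted p = 1.35e-05 by limma, exact permutation p = 0.1). Elf4 had 21399, 20979 and 21452 normalized counts in WT and 22701, 22846 and 22851 in cKO. This was the smallest of the called ETS changes, 7.16%, and its replicates were closely grouped, with a log2 fold change of 0.10 (0.04 to 0.16, adjusted p = 0.00863 by limma, exact permutation p = 0.1). Correcting each sample for GC content and length of transcript ended the call of Elf4 (log2 fold change 0.07, adjusted p = 0.058 by limma).

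The letters GGACT, with U for T in RNA, are a common form of the sequence context in which m6A is placed, often near stop codons. They were searched on the sense strand of 1 annotated transcript per gene, that of GENCODE release M21 on GRCm38. Methylation itself was not analysed here, so a match says only that the letters are present. The 4 ETS transcripts were denser than most: 10 matches in Ets1, 7 in Ets2, 7 in Fli1 and 8 in Elf4, or 1.97, 1.80, 2.11 and 1.31 per kb, whereas the median over 11794 coding transcripts was 1.05 per kb. The Ikaros transcripts held 0.581 (Ikzf1), 0.431 (Ikzf2) and 0.820 (Ikzf3) matches per kb, all under that median. Runx1 held 1.02, Runx3 0.772 and Cbfb 0.694. At least 1 match was present in 91.6% of all these transcripts. The match nearest the stop codon is shown with 8 bases on each side for the 4 ETS genes, which were called, and for Ikzf1, the most abundant Ikaros gene, which was not called. Capitals mark GGACT, and each sequence is written 5′ to 3′ in the direction of the transcript.
Ets2: gggcccagGGACTgagtggga
Ets1: tgttggttGGACTcttcattt
Fli1: gatactctGGACTctaaaagg
Elf4: tttcatgtGGACTtaagtaag
Ikzf1: atagatatGGACTttgctatc
In each of the 4 ETS transcripts this site lies in the last exon, in the 3′ untranslated region, at 42 bases (Ets2, exon 10, chr16:95719168-95719188, plus strand), 79 bases (Ets1, exon 8, chr9:32754492-32754512, plus strand), 63 bases (Fli1, exon 9, chr9:32423705-32423725, minus strand) and 59 bases (Elf4, exon 9, chrX:48414596-48414616, minus strand) past the first base of the stop codon. For Ikzf1 the nearest such site is 966 bases past it, in the 3′ untranslated region of exon 8 (chr11:11770535-11770555, plus strand). Ets2 fell while Ets1, Fli1 and Elf4 rose, so the genes that share a match close to the stop codon did not share a direction. Runx1 and Cbfb, with sites 27 and 98 bases past the stop codon, were called lower and not called. Of the remaining genes, none of them called, Ikzf3 had its nearest such site in coding sequence, 218 bases before the stop codon. Runx3 and Ikzf2 had theirs 324 and 3699 bases past it.

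**Figure D2:**
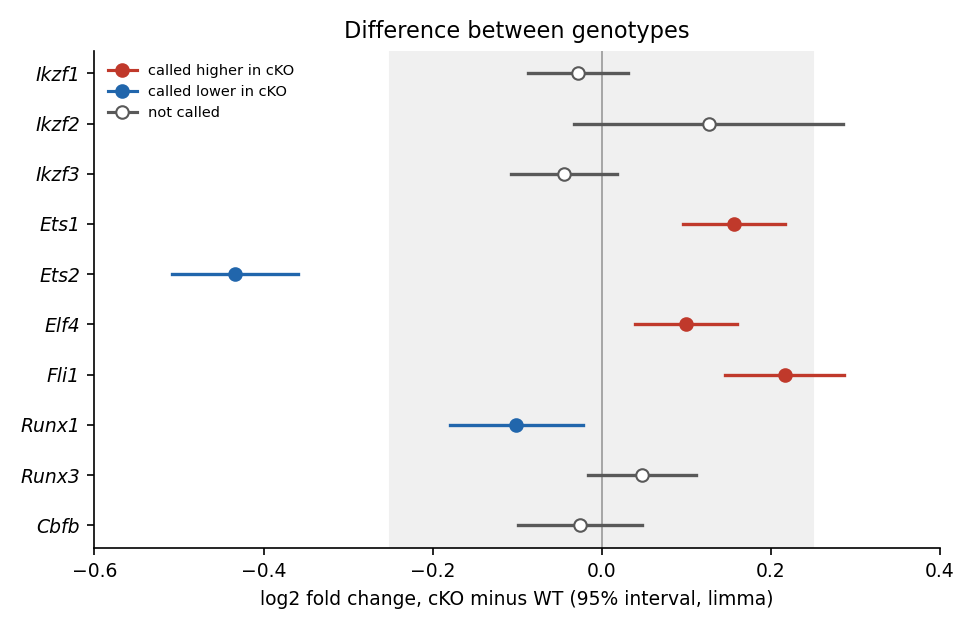
Log2 fold change of each of the 10 genes (x axis, cKO minus WT) with its 95% interval from limma. Filled points were called and open points were not, and the gray band marks 0.25 on either side of 0. Ets2 at −0.43 is the one gene whose interval lies wholly outside the band. The points of Ikzf1, Ikzf3 and Cbfb change sign when samples are scaled to equal totals.

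The RUNX genes moved little. Runx1 encodes the RUNX protein of blood stem cells and is also active in lymphocytes. It had 9139, 8206 and 8629 normalized counts in WT and 8293, 8074 and 7836 in cKO. The groups overlapped, since cKO replicate 1 lay above WT replicate 2. Runx1 was called lower by a narrow margin, with a log2 fold change of −0.10 (−0.18 to −0.02, adjusted p = 0.0411 by limma, exact permutation p = 0.2). The call was lost without WT replicate 1 (log2 fold change −0.06, adjusted p = 0.259 by limma), without WT replicate 3 (adjusted p = 0.0709), without cKO replicate 2 (adjusted p = 0.0717), without cKO replicate 3 (adjusted p = 0.161), and under equal totals, where the log2 fold change was −0.05 (adjusted p = 0.309).

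Runx3 is the more abundant of both RUNX genes in NK cells. Its values were 26666, 25074 and 25193 normalized counts in WT and 26521, 26319.6 and 26660 in cKO. WT replicate 1 lay above all cKO samples and the other WT samples below them, and the log2 fold change was 0.05 (−0.02 to 0.11, adjusted p = 0.243 by limma), or 0.10 and called under equal totals (adjusted p = 0.011 by limma). Cbfb had 7528, 7619.98 and 7131 normalized counts in WT and 7190.3, 7341 and 7345 in cKO, with overlapping groups. Its log2 fold change of −0.03 (−0.10 to 0.05, adjusted p = 0.621 by limma) turned sign under equal totals and under the GC and length correction. The interval places any change of Cbfb between −6.66% and 3.37% of the WT level.

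RefSeq promoter windows of GRCm38.p6, 250 bases before to 50 bases after a start, were found for 6 of the 10 genes, with 10 windows in all. None was found for Ikzf2, Ikzf3, Ets1 and Fli1. On both strands, the RUNX letters TGTGGT were in 2 of the 10 windows, the ETS letters CCGGAA in 1 window and the Ikaros letters TGGGAA in 2 windows. Of 32851 windows of the same length, 16.8% held the RUNX letters, 14.9% the ETS letters and 25.6% the Ikaros letters. The windows with RUNX letters are shown around their matches because they are the ones at the upstream starts of Runx1 and Runx3, the RUNX genes themselves. Capitals mark ACCACA, which is how the motif reads on the other strand, and the sequences run 5′ to 3′ in the direction of the gene.
Runx1: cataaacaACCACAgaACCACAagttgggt
Runx3: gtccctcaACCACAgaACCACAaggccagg
Both stretches hold the same pair of matches, 8 bases apart from start to start. In Runx1 (chr16:92826025-92826054, minus strand) the first match begins at position 28 relative to the annotated start, and in Runx3 (chr4:135120503-135120532, plus strand) at position −134. Of all windows, 1.81% held 2 or more matches. The deposited values are sums per gene and do not separate transcripts by their start. The ETS letters were in the second Runx1 window (chr16:92697280-92697579), and no window of Ets2, Ikzf1 or Cbfb held any of the 3 motifs.

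Levels of different genes were compared per kb of exon in the basic GENCODE M21 annotation. The full annotation gives more exon bases, 8476 in place of 5080 for Ets1 and 8754 in place of 3658 for Ikzf3. With the full lengths Ets1 would stand below Ikzf1, and Ikzf3 below Elf4. The order and distances below thus hold for the basic lengths only. Ets1 was the highest of the 10 genes, with a mean of 11322 normalized counts per kb over the 6 samples, followed by Ikzf1 (7759), Runx3 (6243), Ikzf3 (5461) and Elf4 (3585). Below them came Fli1 (2731), Cbfb (2525), Ets2 (1797), Runx1 (1122) and Ikzf2 (105). The order did not depend on the genotype except for Fli1 and Cbfb, whose ranges over the 6 samples overlapped: in WT Cbfb was above Fli1 (2549 against 2527 per kb), and in cKO Fli1 was above Cbfb (2935 against 2502 per kb). All other neighbors in this order were separated in every sample. Ikzf2 stood 10.7-fold below Runx1, the next gene up.

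**Figure D3:**
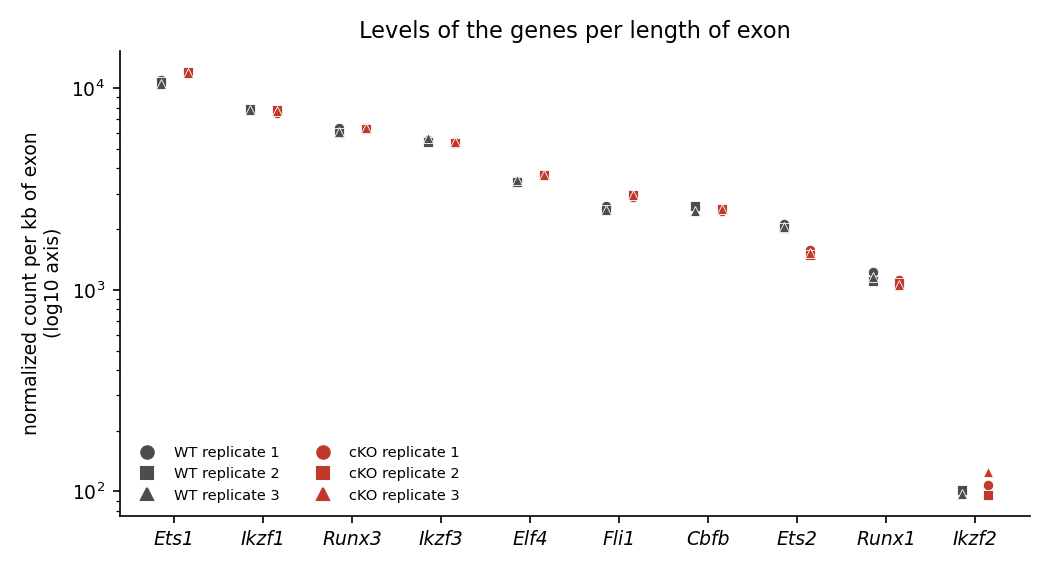
Normalized counts per kb of exon in the basic annotation (y axis, log10 scale) of the 10 genes in each sample, ordered by their mean. The order depends on the annotation used. Ets1 leads at 11322 per kb, Fli1 and Cbfb overlap, and Ikzf2 lies 10.7-fold under Runx1.

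A ratio of 2 genes within a sample does not depend on the size factor, so 9 pairs were compared in this way by the exact permutation test (two-sided, smallest p = 0.1, and 0.18 after adjustment over the 9 pairs, so no pair could pass 0.05). The log2 ratio of Ets1 to Ets2 was 2.75, 2.79 and 2.73 in WT and 3.30, 3.40 and 3.35 in cKO. Ets1 counts were thus 6.77 times those of Ets2 in WT and 10.2 times in cKO, with no overlap (exact permutation p = 0.1). The log2 ratio of Runx1 to Runx3 was −1.54, −1.61 and −1.55 in WT and −1.68, −1.70 and −1.77 in cKO, again without overlap (exact permutation p = 0.1). That is 0.337 Runx1 counts per Runx3 count in WT and 0.304 in cKO. Of the other pairs, Ets1 to Fli1 (difference of −0.06), Ets1 to Elf4 (0.06) and Runx3 to Cbfb (0.07) did not overlap between the genotypes, and their exact permutation p was 0.1 each. The pairs of Ikaros genes and Runx1 to Cbfb overlapped, with differences of 0.02 for Ikzf1 to Ikzf3 (exact permutation p = 0.7), −0.15 for Ikzf1 to Ikzf2, 0.17 for Ikzf2 to Ikzf3 and −0.08 for Runx1 to Cbfb (exact permutation p = 0.3 each).

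The same shift can be read as shares of each family's summed level, with counts first divided by the basic exon length. The size of each share depends on these lengths. Of the summed level per kb of the 4 ETS genes, Ets2 gave 11.0% ± 0.158 in WT and 7.61% ± 0.261 in cKO (SD, n = 3 each). The shares of Ets1 and Fli1 were 57.1% and 13.5% in WT and 59.4% and 14.6% in cKO, while Elf4 gave 18.4% in both. Runx1 gave 15.9% of the summed level per kb of Runx1 and Runx3 in WT and 14.6% in cKO. Among the Ikaros genes, Ikzf1 gave 58.1% in WT and 58.3% in cKO, Ikzf3 41.1% and 40.8%, and Ikzf2 0.742% and 0.833%, all with overlapping samples.

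**Figure D4:**
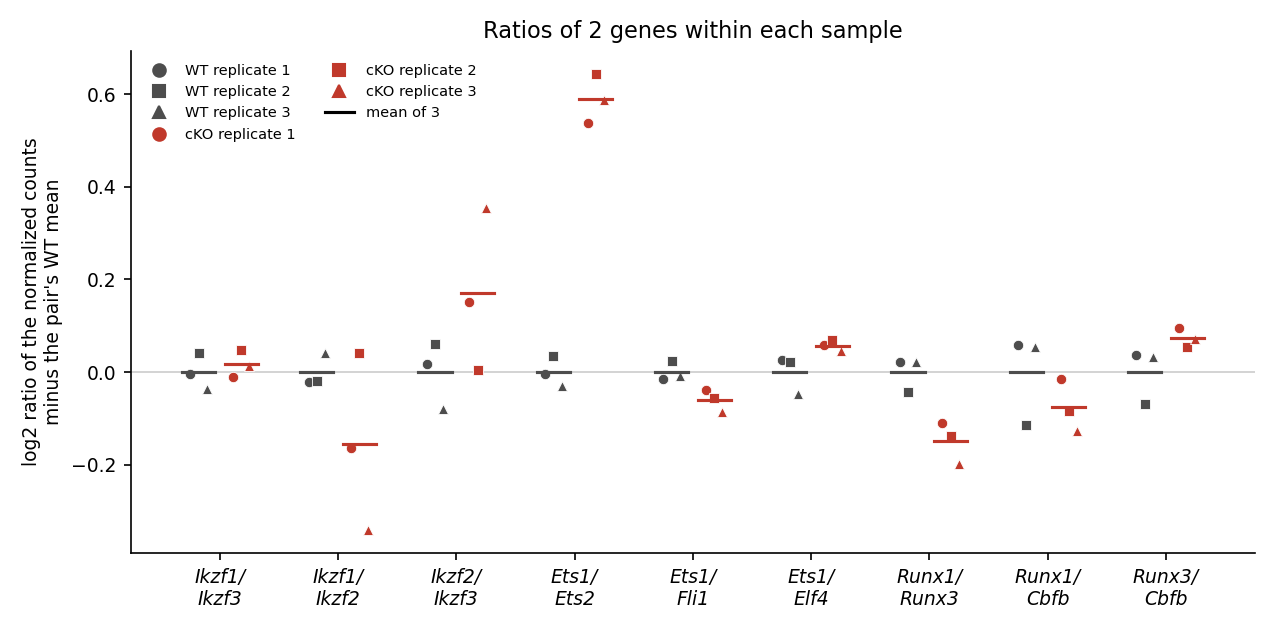
Log2 ratio of the normalized counts of 2 genes in each sample, as the difference from that pair's WT mean (y axis), with 1 symbol per sample and a line at the mean of 3 samples. Ets1 to Ets2 stands 0.59 above WT, Runx1 to Runx3 lies 0.15 below, and the pairs with Ikzf2 spread the most among cKO samples.

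The rest of these families was followed in a list of 25 further Ikaros, ETS and RUNX genes, of which 16 had values. Of these, 8 of 16 were called, beside 36.6% of all genes. In direction, 3 were higher and 5 lower in cKO, and under equal totals 5 were higher and 3 lower. The genes called higher were Spib (log2 fold change 0.64, mean 68.3 to 102 normalized counts, overlapping samples), Runx2, the third RUNX gene (0.16, 6331 to 7095), and Gabpa, which encodes the DNA-binding part of the GABP complex (0.11, 3394 to 3666). Those with the largest falls were Etv5 (−0.47, 724 to 524), Ikzf5, which encodes the Ikaros family protein Pegasus (−0.33, 351 to 278), and Erf, an ETS repressor inactivated by ERK (−0.31, 10213 to 8242). The most abundant gene of the list, the ETS repressor gene Etv3, had means of 28484 ± 335 and 28272 ± 542 normalized counts in WT and cKO (SD, n = 3 each) and was not called (log2 fold change −0.01). The other called falls were those of the ETS genes Elk4 (−0.30, 11923 to 9696) and Elf1 (−0.09, 21652 to 20345). The ETS genes Elf2, Elk1, Elk3, Etv1, Etv6, Spi1 and Spic were not called either. The count of 8 called genes dropped to 4 without cKO replicate 1 and to 5 without cKO replicate 2. The median log2 fold change of the list was −0.01, against 0.00 over all genes.

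Proteins linked to these factors are encoded by the 27 genes with values in a list of 28. The list covers the NuRD, SIN3 and CtBP corepressors, the adapter cereblon, GABPβ, the ETO and TLE corepressors and the CBP and p300 coactivators. Of the 27 genes, 11 were called (40.7%, beside 36.6% of all genes), 4 higher and 7 lower (beside 17.8% and 18.8%). The median log2 fold change was −0.03. Under equal totals 8 were higher and 6 lower, and under the GC and length correction 3 were higher and 11 lower. The largest rises were those of Cbfa2t3, which encodes the RUNX-linked corepressor ETO2 (log2 fold change 0.52, 2137 to 3066 normalized counts), the NuRD gene Mbd3 (0.31, 4988 to 6177) and the corepressor gene Tle3 (0.23, 28573 to 33461). The largest falls were those of Gabpb1, the GABPβ gene (−0.40, 4585 to 3468), Crbn, the cereblon gene (−0.33, 2181 to 1732), and Rbbp4, which encodes a histone-binding NuRD subunit (−0.22, 12302 to 10542). Chd4, the NuRD ATPase and the most abundant gene of the list, fell as well (−0.21, 34766 to 30057). The NuRD genes thus included both a called rise and called falls.

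The gene whose pattern over the 6 samples was closest to that of Ets2, among 11054 genes with a mean of at least 100, was Gabpb1, with a root mean square difference of 0.017 between the log2 values after each gene was centered on its mean. It had 4725, 4485 and 4544 normalized counts in WT and 3591, 3383 and 3430.2 in cKO. Next came Gpr132, a G protein-coupled receptor gene (0.023), and Cwc25, a splicing factor gene (0.027). With 6 samples in 2 groups, such a likeness rests mainly on the size of the difference between the genotypes.

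A list of 22 NK cell genes was drawn from general knowledge of genes that need, or are bound by, one of these factors, and 11 of the 22 were called, 6 higher and 5 lower, beside 36.6% of all genes called. Under equal totals 14 were called, 9 higher and 5 lower. The median log2 fold change was 0.01. Il7r, the interleukin-7 receptor gene, rose the most (0.52), from 706, 690.0 and 734 normalized counts in WT to 1035, 1011 and 1003 in cKO. Tbx21, the T-bet gene, rose by 0.23 on the log2 scale (21256 to 25013) and Klf2, a gene of lymphocyte quiescence and trafficking, by 0.20 (144849 to 166798). Klrg1, a receptor gene of terminally mature NK cells, was lowest relative to WT (−0.55), with 8946, 9193 and 8545 normalized counts in WT and 6267, 6409 and 5541 in cKO. Ncr1, the NKp46 gene, fell from 22394 to 16918 (−0.40), but since the Cre allele sits at this locus, a change in the NK cells and a change through the allele cannot be told apart. Cd160 fell from 3781 to 3098 (−0.29). Prf1, the perforin gene, was called lower too, with means of 139576 normalized counts in WT and 122826 in cKO (−0.18). Il2rb, the IL-2 and IL-15 receptor β gene and the most abundant of the list, rose from 170370 ± 5463 (SD, n = 3) to 187594 ± 3508 (SD, n = 3), a log2 fold change of 0.14. Under both scalings the list held called rises and called falls.

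**Figure D5:**
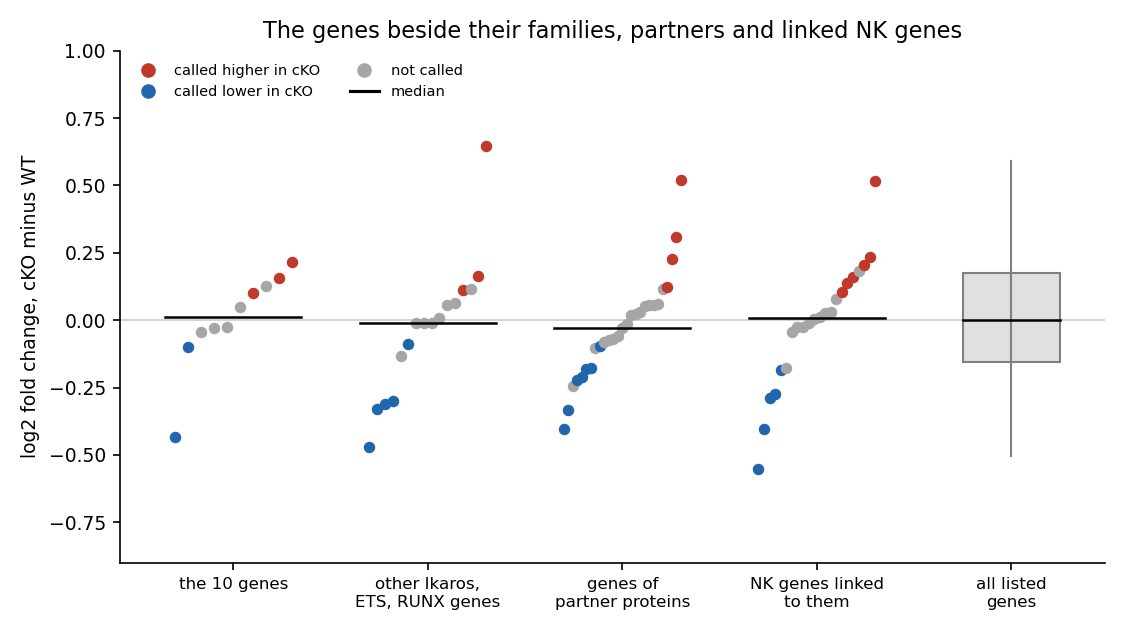
Log2 fold change (y axis, cKO minus WT) of each gene of the 4 lists, with a black line at each median, and, for all listed genes, a box of the quartiles (−0.16 to 0.18) with a line from the 5th to the 95th percentile (−0.50 to 0.59). Red points were called higher, blue points lower and gray points not called. The medians lie between −0.03 and 0.01 under the authors' size factors, and each list holds called genes in both directions. Under equal totals, the other family genes, the partner genes and the linked NK cell genes have more called rises than called falls.

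In bulk samples, fewer cells of a type and less RNA per cell cannot be told apart, and several of the 10 genes are active in other lymphocytes. B cell markers were called higher in cKO for 7 of 9 genes, beside 17.8% of all genes. The summed level of these markers was 810 to 872 normalized counts in WT and 1271 to 1301 in cKO. Cd79a, the most abundant of them, had means of 201 and 334 normalized counts, against 54400 and 60630 for Ets1. Ikzf1, Ikzf3, Ets1, Fli1 and Spib are known to be active in B cells too. The part of the B cell markers in the rises of Ets1, Fli1, Elf4 and Spib was not tested. Of the 8 T cell markers with values, 3 were called (37.5%, beside 36.6% of all genes), all lower in cKO. The sum of the T cell markers was 7097 to 7773 in WT and 5854 to 6247 in cKO, led by Lat, which NK cells also use. Of the 5 myeloid markers with values, 2 were called higher and 1 lower, beside 17.8% and 18.8% of all genes. The sum of the myeloid markers was 6138 to 6656 in WT and 5931 to 6687 in cKO, with Csf1r the most abundant. Neither the 2 megakaryocyte genes with values, led by Gp1bb (sum 577 to 668 in WT and 518 to 608 in cKO), nor the 4 red cell genes, led by Hbb-bs (sum 778 to 826 in WT and 660 to 798 in cKO), were called by limma or limma-voom. At an unadjusted p under 0.05 the counts were 0 and 1 in both fits, beside 44.2% (limma) and 44.0% (limma-voom) of all genes. Cd8b1, S100a8, S100a9, Mpo, Siglech, Pf4, Ppbp and Gp9 had no row among the genes with values. Among the 8 NK cell markers, 1 was called higher (Tbx21) and 6 lower, beside 17.8% and 18.8% of all genes. Whether the falls of NK markers and those of Ets2 and Runx1 are linked was not tested.

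On the chromosomes, Ets1 and Fli1 are direct neighbors. Fli1 (chr9:32422204-32542861, minus strand) and Ets1 (chr9:32636221-32757820, plus strand) lie 93359 bases apart with 0 listed genes between them, and both were called higher. Ets2 (chr16:95702075-95721051, plus strand) and Runx1 (chr16:92601466-92826149, minus strand), both called lower, lie on the same chromosome but 2875925 bases apart with 10 listed genes between them. Antisense genes overlap some of these loci, and whether reads were counted by strand is not stated. Gm26626 shares 106 exon bases with Runx1, and its mean was 22.0 normalized counts in WT and 23.3 in cKO, far under the 8658 and 8068 of Runx1. Gm29114 shares 144 exon bases with Ikzf2. Gm16224, an antisense gene within the Runx3 locus whose exons do not overlap those of Runx3, was higher in cKO (68.0 to 108 normalized counts, log2 fold change 0.68, adjusted p = 0.0182 by limma). Without strand, the reads of Gm16224 cannot be told apart from unspliced Runx3 reads. Of all genes, 17.8% were called higher. The other genes with values that lie within a locus without exon overlap were not called. These were Gm27240 at Ets1, Gm11999 and Gm12000 at Ikzf1, and Gm37082, Gm37474 and Gm38346 at Fli1.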

How the data were processed

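Splenic NK cells were sorted and their poly(A) RNA was sequenced as paired reads. The sample labels gave each genotype and replicate number. Per the study's methods and the submitters' processing notes, the authors used HISAT2 for alignment to GRCm38, featureCounts for gene counts and DESeq2 for the comparison of genotypes (versions 2.0.5, 1.5.0-p3 and 1.16.1 in the notes, while the methods name others). The values the authors deposited are a signal, counts per gene over a DESeq2 size factor per sample. The authors' log2 fold changes, p-values and scores (standard errors and Wald statistics) from DESeq2 stand in the same table and were not used.

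Values were multiples of 1 step per sample within a tolerance of 0.02 reads, which gave the reads on listed genes. These totals cover listed genes only. A filter, a value of 1 or more in 3 samples or more, removed none of the 14490 genes. limma 3.58.1 in R 4.3.3 fitted genotype with a variance trend to log2(value + 1), with two-sided p adjusted over all genes by the Benjamini-Hochberg method. Single genes and ratios were compared by the exact permutation test. The members and gene lists were chosen with earlier results of these data known. In each further list, the 3 called genes with the largest rise and fall and the most abundant gene are named. In marker lists the most abundant gene is named, and beside Ets2 the 3 genes of nearest pattern. All further ETS genes with values are named as well, and Prf1 for its link to Elf4. Gm26626, Gm29114, Gm16224 and the other Gm genes are named for their position. Cd8b1, S100a8, S100a9, Mpo, Siglech, Pf4, Ppbp and Gp9 are named as markers without a value. Transcripts, exon lengths and positions are from the basic annotation of GENCODE M21 (GRCm38), matched for 14073 genes. Exon overlaps with neighbors are from its full annotation. The 19 names that had become dates and 1 repeated name were kept and not named. The fit was tested on simulated data. Alternatives were another pseudocount, filters, scaling, limma-voom, a replicate block, a GC and length correction, other call rules and each sample left out.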

Additional observations from a re-analysis of the deposited data

How the results depend on the processing

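Ets1, Ets2 and Fli1 kept their direction and call in all 13 alternatives, with log2 fold changes of 0.14 to 0.21, −0.46 to −0.38 and 0.20 to 0.27. Between 4 and 5 of the 10 genes were called when each sample was left out in turn. A fold limit ended all calls. By limma and by limma-voom, 0 of 10 genes had an adjusted p under 0.05 with a log2 fold change beyond 0.5, beside 6.95% of all genes by limma. The study's cut-offs with a limit of 1, applied to the limma results, were passed by 0 of the 10 genes and by 1.75% of all genes. In both fits 5 of the 10 genes had an unadjusted p under 0.05, beside 44.2% and 44.0% of all genes. Of the other family genes, 4 to 7 in place of 8 were called when a sample was left out, with fewer samples in the fit. Scaling to equal totals, which set the median over all genes at 0.05 on the log2 scale, turned the sign of 3 genes that were not called, to 0.0216 for Ikzf1, 0.0051 for Ikzf3 and 0.0238 for Cbfb. The GC and length correction turned Cbfb to 0.0023. The causes were not tested. Equal totals called 3487 genes higher and 2016 lower, against 2576 and 2731. With the replicate number as a block, 5 of the 10 genes, 8 other family genes, 14 partner genes and 11 NK cell genes were called, and 5543 genes in all in place of 5307. The deviations of samples with the same number correlated at −0.02, 0.12 and 0.07, and not every sample correlated best with its own number, so the samples share only a number. The 2 planned count-model tests were not run. Replicates differed by more than counting noise, with chi-square per degree of freedom of 5.50 to 8.01 over all genes. With a mean of 1001 normalized counts, Ikzf2 had the lowest depth of the 10.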
